A study of Macaca mulatta with 30 samples.

Results

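The 10 genes described here are the vascular endothelial growth factor (VEGF) ligands VEGFA and VEGFC, the ligand ANGPT1, their receptors KDR, FLT1, FLT4, TEK and TIE1, and the co-receptors NRP1 and NRP2. They were taken as the rows of the lung and hippocampus count tables whose Ensembl rhesus gene symbol was one of these names. All 10 were found among the 30246 gene identifiers of the lung table and among the 32386 of the hippocampus table, and all 10 had enough reads to be tested in both.

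VEGFA acts on endothelial cells mainly through the tyrosine kinase receptor KDR, while FLT1 binds VEGFA tightly, signals weakly and can act as a decoy. VEGFC acts through FLT4, chiefly in lymphatic endothelium, and the neuropilins NRP1 and NRP2 bind both VEGF family ligands and class 3 semaphorins. ANGPT1, made largely by perivascular cells, activates TEK on endothelium, with TIE1 as its partner receptor, and in the fetal lung these systems accompany the growth of the capillary bed along the airspaces.

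Pregnant wild-type rhesus macaques received an intramuscular injection of saline or a corticosteroid, and fetal RNA was sequenced. In lung there were 5 groups of 3 fetuses at gestational day 124 to 130 per the labels, namely saline, the clinical drug (Celestone, a mixture of betamethasone phosphate and acetate, 0.25 mg/kg) at 4 h and 5 days, and Beta-Ac (betamethasone acetate, 0.125 mg/kg) at 6 h and 5 days. In hippocampus there were 3 groups of 5 fetuses at gestational day 130 to 136, all 5 days after treatment and named CTL, BAC and CEL after their libraries. The treatment and dose fields of the BAC and CEL libraries are the other way round from those of the lung libraries that carry the same numbers, so hippocampus groups are given by library name. Of each of these 2 groups, 3 of the 5 library numbers recur among the lung libraries. The labels do not say whether the lung range is age at treatment or at delivery, and the 9 hippocampus libraries whose numbers recur in lung are labelled day 131 to 136, so the ranges do not show that the tissues differ in age. Totals were 14.1 to 45.0 M reads per lung library and 18.3 to 29.3 M per hippocampus library. Levels are CPM, read counts scaled to library size after TMM normalisation, and the 2 tissues were normalised separately, so no test was made between them.

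The libraries matched their tissue labels. In lung the alveolar type 2 markers (5 of 6 matched, SFTPC the most abundant) summed to 6335 to 16669 CPM while the neuronal list (8 of 8 matched, SYT1 the most abundant) summed to 10.0 to 22.2 CPM, with NEUROD2 at 0 in every library. In hippocampus the neuronal list summed to 2809 to 4633 CPM and the alveolar type 2 list (6 of 6 matched, ABCA3 the most abundant) to 205 to 322 CPM. The control library CTL212 stood apart. Its choroid plexus markers (4 of 7 matched, CLIC6 the most abundant, none at 0) summed to 1084 CPM, against 7.81 to 29.2 CPM in the other 14 hippocampus libraries. Hippocampus results that rest on it are given with and without it. In lung, library 17-254 (Beta-Ac, 6 h) had the highest sum of blood markers (4 of 9 matched, ALAS2 the most abundant), at 223 CPM.

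At 4 h after the clinical drug, the co-receptors and the main VEGF receptor were lower in fetal lung, while none of VEGFA, VEGFC and ANGPT1 passed the test. Calling a gene required, in edgeR's quasi-likelihood test, a 1.5-fold difference or more, an unadjusted p below 0.05 and a Storey q below 0.1 across the 17644 genes tested. Against saline, 3 of the 10 genes were called, beside 7.4% of all tested genes. These 3 were KDR, NRP1 and NRP2, all called lower, beside 3.94% of all tested genes called lower. The median log2 fold change of the 10 was -0.31, and that of all tested genes was 0.019.

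Of the ligands, VEGFA (ENSMMUG00000004577) stood at 1247, 1648 and 1637 CPM at 4 h after the clinical drug and 1839, 1954 and 1700.2 CPM after saline. The treated libraries all lay below the controls, but by less than the fold required, with a log2 fold change of -0.28 (SE 0.11, edgeR Storey q = 0.114), which was -0.17 without 15-81. Levels of VEGFA were 1822, 1584 and 1650.5 CPM at 6 h after Beta-Ac, 1729, 1619.9 and 1754 CPM at 5 days after the clinical drug and 1809, 1912 and 1880.5 CPM at 5 days after Beta-Ac. Each of these 3 groups overlapped saline. VEGFC (ENSMMUG00000003748), the lymphatic growth factor, ranged from 28.8 to 43.9 CPM over the 15 lung libraries, and ANGPT1 (ENSMMUG00000017745), the TEK agonist, from 168 to 251 CPM. Neither was called in any of the 9 lung comparisons.

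KDR (ENSMMUG00000012669), the receptor that carries most VEGFA signalling, stood at 582, 632 and 622 CPM in saline-treated lungs and 311, 205 and 304 CPM at 4 h after the clinical drug. Every treated library was below every control, with a wide gap between the highest treated library and the lowest control. The log2 fold change was -1.16 (SE 0.14, edgeR Storey q = 0.000132), with a 95% confidence interval of -1.45 to -0.87. At 6 h after Beta-Ac, KDR was 491, 444 and 554 CPM, also below every control, but the fold change of -0.30 (SE 0.13, edgeR Storey q = 0.318) did not pass. The 2 early groups differ in drug, dose and hours since treatment, and the animal numbers of the clinical group all start with 15 while those of the Beta-Ac group start with 16 or 17, so these cannot be told apart. Compared directly, KDR was lower at 4 h after the clinical drug than at 6 h after Beta-Ac, by a log2 fold change of -0.86 (SE 0.14, edgeR Storey q = 0.00361). In that comparison 2 of the 10 genes were called, KDR and NRP2, beside 6.74% of all tested genes, and both were lower, beside 4.11%.

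By 5 days KDR was 648, 616 and 659.8 CPM after the clinical drug and 485, 536 and 469 CPM after Beta-Ac. The former overlapped the controls and the latter lay below them, and neither comparison with saline was called. Between 4 h and 5 days after the clinical drug, 3 of the 10 genes were called, beside 10.4% of all tested genes, and all 3 were lower at 4 h, beside 5.92%. KDR was among them, with a log2 fold change of -1.23 (SE 0.14, edgeR Storey q = 7.83e-05). The animal numbers of the 4 h group all start with 15 and those of the 5 day group with 16, so time and number series cannot be told apart. Ordered by mean, KDR was lowest at 4 h after the clinical drug (273 ± 59.4 CPM, mean ± SD, 3 fetuses), followed by Beta-Ac at 6 h (496 ± 55.3) and Beta-Ac at 5 days (497 ± 35.1). Saline (612 ± 26.7) and the clinical drug at 5 days (641 ± 22.4) were highest. The 2 Beta-Ac groups overlapped each other, as did the 2 highest groups.

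**Figure D1:**
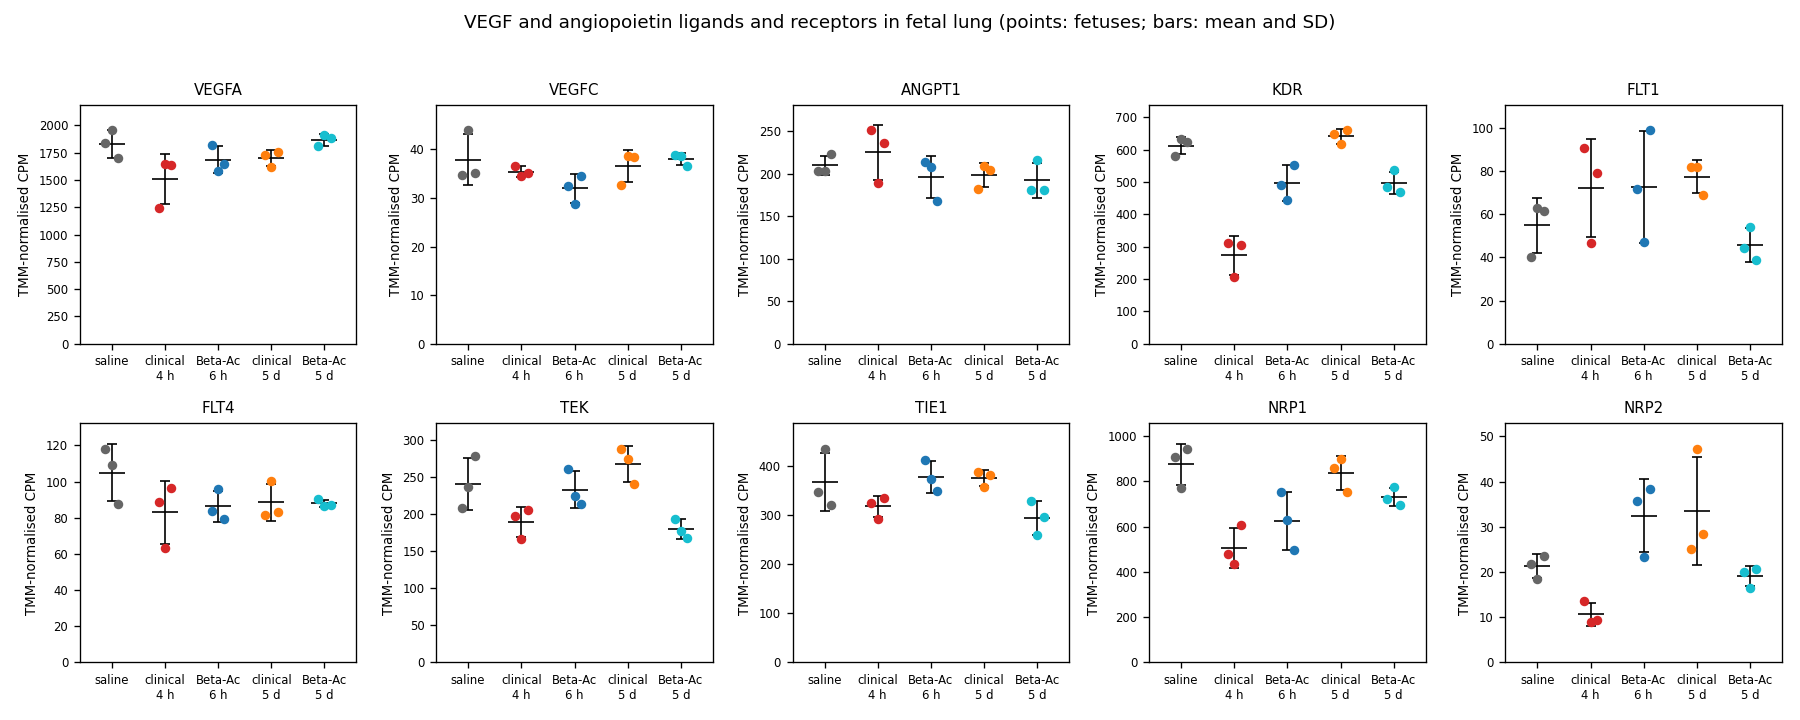
Level of each of the 10 genes in fetal lung, in TMM-normalised CPM on a linear axis from 0, for 5 groups of 3 fetuses (points, fetuses, bars, mean and SD). KDR, NRP1 and NRP2 at 4 h after the clinical drug lie below every saline library.

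FLT1 (ENSMMUG00000021538), the VEGFA receptor that can act as a decoy, had no called difference in lung. It stood at 90.8, 46.8 and 79.3 CPM at 4 h after the clinical drug and 40.1, 62.8 and 61.7 CPM after saline, and the groups overlapped. The fold change, 0.40 (SE 0.27, edgeR Storey q = 0.326), was not called. At 5 days FLT1 was 81.9, 81.8 and 68.8 CPM after the clinical drug and 44.3, 54.2 and 38.9 CPM after Beta-Ac. The clinical group lay above every saline and every Beta-Ac library, but neither difference was called. Against saline it was 0.50 (SE 0.27, edgeR Storey q = 0.931), which met none of the 3 criteria, and against Beta-Ac it was 0.76 (SE 0.27, edgeR Storey q = 0.999), which did not pass the adjustment. A ratio of KDR to FLT1 within each library, chosen after the values were seen and not tested, was 3.43, 4.38 and 3.83 at 4 h after the clinical drug and 14.5, 10.1 and 10.1 after saline. At 6 h after Beta-Ac it was 6.82, 9.41 and 5.60, at 5 days after the clinical drug 7.92, 7.54 and 9.59, and at 5 days after Beta-Ac 10.9, 9.89 and 12.1. The first 3 of these drug groups lay below every control and the last overlapped them. FLT4 (ENSMMUG00000018693), the VEGFC receptor, ranged from 63.4 to 118 CPM over the lung libraries and was called in none of the 9 comparisons.

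The co-receptor NRP1 (ENSMMUG00000017588) stood at 908, 773 and 943 CPM after saline and 479, 436 and 605 CPM at 4 h after the clinical drug. No treated library reached the controls, and the log2 fold change was -0.79 (SE 0.15, edgeR Storey q = 0.00449). At 6 h after Beta-Ac the libraries were at 754, 627 and 498 CPM, all below the controls, and the fold change of -0.48 (SE 0.15, edgeR Storey q = 0.223) was not called. The direct comparison of the 2 early groups for NRP1 gave -0.31 (SE 0.15, edgeR Storey q = 0.166) and was not called either. At 5 days NRP1 was 858, 901 and 752 CPM after the clinical drug and 723, 774 and 694 CPM after Beta-Ac, overlapping saline in both. The difference between 4 h and 5 days after the clinical drug was called, with a log2 fold change of -0.72 (SE 0.15, edgeR Storey q = 0.00566) for 4 h over 5 days.

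NRP2 (ENSMMUG00000020052), the co-receptor shared by VEGFC and semaphorins, was lower at 4 h after the clinical drug and not at 6 h after Beta-Ac. It stood at 21.8, 18.4 and 23.6 CPM after saline, 13.5, 8.82 and 9.45 CPM at 4 h after the clinical drug and 35.8, 23.2 and 38.3 CPM at 6 h after Beta-Ac. The clinical group lay wholly below saline, while the Beta-Ac group overlapped it with 2 libraries above every control. Against saline the log2 fold changes were -0.99 (SE 0.25, edgeR Storey q = 0.0229) for the clinical drug and 0.61 (SE 0.25, edgeR Storey q = 0.294) for Beta-Ac, which share the same controls. Compared directly, the 2 drug groups had a called log2 fold change of -1.60 (SE 0.25, edgeR Storey q = 0.00361). At 5 days NRP2 was 25.2, 47.2 and 28.3 CPM after the clinical drug and 20.1, 16.5 and 20.8 CPM after Beta-Ac, the former above every control and the latter overlapping them. The difference from saline after the clinical drug, 0.66 (SE 0.25, edgeR Storey q = 0.931), was not called and was 0.33 without 16-120, and that between 4 h and 5 days was called, with -1.65 (SE 0.25, edgeR Storey q = 0.000779).

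Neither angiopoietin receptor was called in lung. TEK (ENSMMUG00000006080) stood at 197, 167 and 205 CPM at 4 h after the clinical drug and 208, 236 and 278 CPM after saline. The groups did not overlap, but the log2 fold change of -0.35 (SE 0.12, edgeR Storey q = 0.0864) was under the fold required. At 5 days TEK was 288, 275 and 241 CPM after the clinical drug and 194, 177 and 167 CPM after Beta-Ac, groups that did not overlap, and the Beta-Ac libraries were also below every control. The difference between the drugs, whose doses differ, was 0.58 (SE 0.12, edgeR Storey q = 0.999), with a 95% confidence interval of 0.32 to 0.84, and was under the fold required and did not pass the adjustment. Between 4 h and 5 days after the clinical drug TEK differed by -0.50 (SE 0.12, edgeR Storey q = 0.0133), under the fold required, and it was called without 16-126, at -0.59. TIE1 (ENSMMUG00000010660), which pairs with TEK, had the same order at 5 days, 387, 357 and 381 CPM against 329, 260.1 and 295 CPM, and its difference of 0.35 (SE 0.12, edgeR Storey q = 0.999) was not called.

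The summed level of endothelial markers at 4 h after the clinical drug overlapped that of the controls. The 8 of 12 listed markers that were matched, PECAM1 the most abundant and none at 0, summed to 3327, 3263 and 4219.8 CPM, against 3227, 3892 and 3461 CPM after saline and 3384, 3595 and 3654 CPM at 6 h after Beta-Ac. These ranges overlapped. The genes of the list differed in direction, and edgeR called 0 of 8, with 4 at an unadjusted p under 0.05 and a median log2 fold change of -0.19 against saline. Among them ERG was at -0.30 and MMRN2 at -0.39 on the log2 scale, while the abundant PECAM1 was at 0.22. VWF, the clotting factor of endothelium, was 864, 849 and 1129 CPM at 4 h after the clinical drug and 374, 731 and 783 CPM after saline, while CDH5, the junction cadherin, was 606, 536 and 803 and 885, 914 and 819.9 CPM. As a share of the endothelial sum in each library, KDR was 9.36, 6.28 and 7.20% at 4 h after the clinical drug and 18.0, 16.2 and 18.0% after saline. NRP1 was 14.4, 13.4 and 14.3% and 28.1, 19.8 and 27.2% of the sum in these groups. Both shares were lower in every treated library than in every control, over a sum in which PECAM1 weighs most. This was not particular to KDR and NRP1. The share of NRP2 was 0.224 to 0.405% against 0.473 to 0.682%, and that of TEK, which was not called, 4.85 to 5.91% against 6.06 to 8.02%. The shares of FLT1, FLT4 and TIE1 overlapped those of the controls. In these bulk samples, fewer cells of a type and less RNA per cell cannot be told apart. The pericyte sum (6 of 7 matched, PDGFRB the most abundant, none at 0) was 1314, 1351 and 1358 CPM against 1699, 1855 and 1768 CPM, without overlap. Of its 6 genes RGS5 alone was called, at 262, 261 and 261 against 478, 598 and 621 CPM, and PDGFRB was at -0.10 on the log2 scale. Between 4 h and 5 days after the clinical drug VWF was called higher at 4 h, with a log2 fold change of 1.13, and RGS5 lower, with -1.11. RGS5 was also called lower than at 6 h after Beta-Ac, with -0.97, and edgeR called no other gene of the 2 lists in these 2 comparisons. At 5 days after the clinical drug the endothelial sum was 3365, 2892 and 3040.1 CPM, overlapping that at 4 h, and the pericyte sum 1769.8, 1475 and 1751 CPM, every library being above those at 4 h. The alveolar type 2 sum was 16669, 10488 and 13457 CPM at 4 h after the clinical drug and 6477, 6335 and 9470.4 CPM after saline, every treated library being above every control. It was 10708, 9738 and 11534 CPM at 5 days after Beta-Ac, where the endothelial sum was 3009, 2967 and 3056 CPM and the pericyte sum 1623, 1615 and 1295 CPM, both below every control. Lymphocyte markers (3 of 5 matched, CD3E the most abundant, none at 0) stood at 2.66, 1.42 and 5.07 against 11.1, 11.5 and 6.48 CPM. The part of these markers in the results for KDR, NRP1, NRP2 and TEK was not tested.

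**Figure D2:**
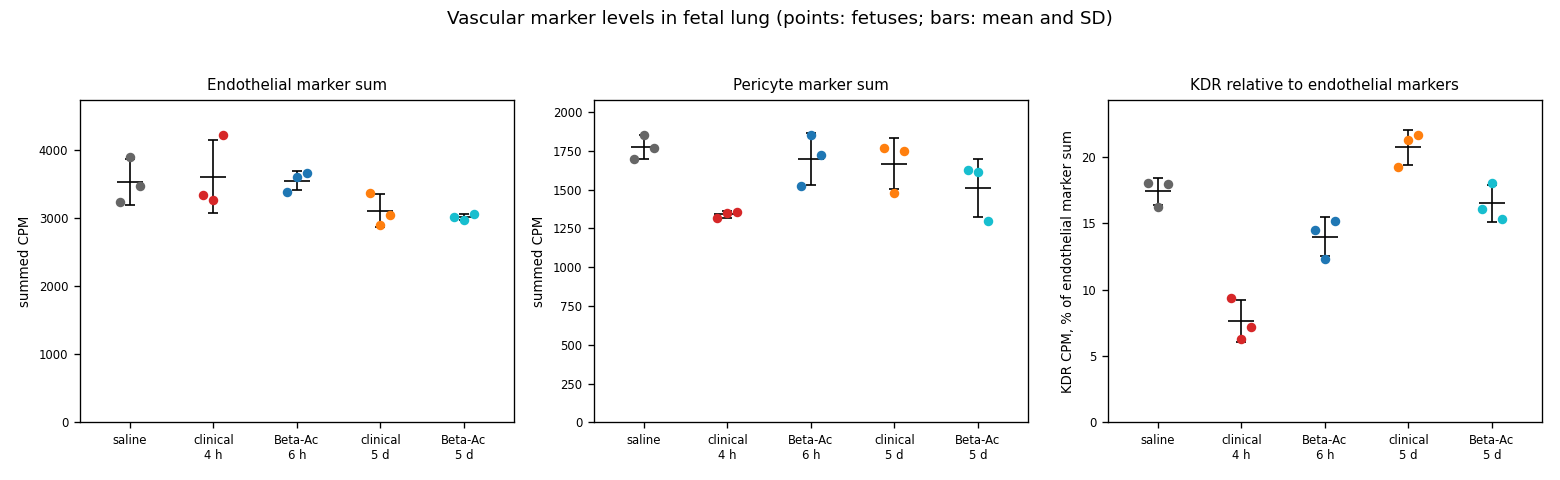
Summed CPM of the endothelial and pericyte markers and KDR as a percent of the endothelial sum, in 5 lung groups of 3 fetuses, with points for fetuses and bars for the mean and SD on linear axes from 0. At 4 h after the clinical drug the endothelial sum overlaps saline, though its genes differ in direction, and the KDR share is below every saline library.

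At 6 h after Beta-Ac, 0 of the 10 genes were called against saline, beside 0.442% of all tested genes. At an unadjusted p under 0.05 there were 4, namely VEGFC, KDR, NRP1 and NRP2, beside 2021 of the 17644 tested genes, and DESeq2 also called 0. At 5 days edgeR and DESeq2 called 0 of the 10 against saline for the clinical drug, beside 0% of all tested genes, and 1 had an unadjusted p under 0.05. For Beta-Ac at 5 days they called 0, beside 0.00567%, with 3 at an unadjusted p under 0.05, beside 1133 of all tested genes. For both drugs together at 5 days the count was again 0 by both tools, beside 0.0113%, with 0 at an unadjusted p under 0.05, beside 1089. Between the drugs at 5 days it was 0 by both, beside 0%, with 5 at an unadjusted p under 0.05 (KDR, FLT1, NRP2, TEK and TIE1), each higher after the clinical drug. Between Beta-Ac at 6 h and 5 days it was 0 by both, beside 0.261%, with 5 at an unadjusted p under 0.05, beside 1396. Where no gene of the whole table was called, 775 had an unadjusted p under 0.05 and DESeq2 called 16 for the clinical drug at 5 days against saline, and 556 and 7 between the drugs.

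Among other genes of the pathway at 4 h after the clinical drug, 2 of 11 tested ligands and modulators were called against saline, both lower. This and the counts of the other lists stand beside the 7.4% of all tested genes called in that comparison. VEGFD, a ligand of FLT4, was at 57.5 ± 11.1 CPM (mean ± SD, 3 fetuses) against 116 ± 13.8 CPM, a log2 fold change of -1.01 (SE 0.23, edgeR Storey q = 0.0135). ANGPTL2, a secreted angiopoietin-like protein, was at 31.6 ± 3.92 against 58.9 ± 9.24 CPM (log2 fold change -0.90, SE 0.23, edgeR Storey q = 0.0212). The libraries of the 2 groups did not overlap for either gene. Of 7 tested hypoxia regulators of VEGFA, 1 was higher and 1 lower. HIF3A, an oxygen-sensing factor that can restrain the other members of its family, rose from 73.1 ± 13.1 to 315 ± 33.0 CPM (log2 fold change 2.11, SE 0.25, edgeR Storey q = 0.000143), and EGLN3, a prolyl hydroxylase, fell from 164 ± 21.8 to 88.7 ± 21.0 CPM (log2 fold change -0.88, SE 0.26, edgeR Storey q = 0.0418). The call for EGLN3 was lost without 15-85, 15-101 or 16-113, with log2 fold changes of -0.73, -0.79 and -0.88.

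Of 26 tested receptor signalling genes, 2 were called, a share close to that of all tested genes, and both were higher. PIK3R1, a regulatory subunit of PI3-kinase, was at 249.9 ± 84.4 CPM against 100.1 ± 13.8 CPM (log2 fold change 1.32, SE 0.19, edgeR Storey q = 0.000632), and FOXO1, a transcription factor held in check by AKT, was at 37.5 ± 11.6 against 16.1 ± 0.795 CPM (log2 fold change 1.23, SE 0.29, edgeR Storey q = 0.016). Of 18 listed genes known to be induced by VEGF, only 10 were matched and tested. Of these 10, 2 were called and both were lower. The list's median log2 fold change was -0.53, beside 0.019 for all tested genes and -0.069 to 0.053 for the other 4 lists. VEGF signalling was not measured, and the cause of this median was not tested. Against the same controls the list's median was -0.082 at 6 h after Beta-Ac, -0.19 at 5 days after the clinical drug and -0.32 at 5 days after Beta-Ac. Compared directly, the clinical drug at 4 h had a list median of -0.14 against Beta-Ac at 6 h and -0.25 against the clinical drug at 5 days. ESM1, an endothelial proteoglycan, was at 1.36 ± 0.598 CPM against 5.20 ± 1.84 CPM (log2 fold change -1.98, SE 0.43, edgeR Storey q = 0.00928), and UNC5B, a guidance receptor of endothelial tip cells, was at 40.4 ± 11.1 against 61.9 ± 14.9 CPM (log2 fold change -0.62, SE 0.21, edgeR Storey q = 0.0749). The groups overlapped for UNC5B, and its call was lost with only the 2 groups in the fit (edgeR Storey q = 0.157), with Benjamini-Hochberg adjustment (edgeR adjusted p = 0.11) and without 15-81, 15-85 or 15-101, where the log2 fold changes were -0.48, -0.57 and -0.40. Of 12 tested semaphorins and plexins, which bind or partner the neuropilins, SEMA3A alone was called, at 2.60 ± 1.02 against 8.07 ± 3.19 CPM (log2 fold change -1.60, SE 0.34, edgeR Storey q = 0.00865).

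At 6 h after Beta-Ac, the calls against saline in the same lists were HIF3A, at 1.35 on the log2 scale, PIK3R1, at 0.93, and ESM1, at -1.93. With only the 2 groups in the fit HIF3A and ESM1 were not called (edgeR Storey q = 0.14 and 0.187), nor was ESM1 with Benjamini-Hochberg adjustment (edgeR adjusted p = 0.106). Leaving out 15-92 or 17-254 ended all 3 calls, with log2 fold changes of 1.37, 0.81 and -2.16 without the former and 1.11, 0.84 and -1.78 without the latter. The call was also lost without 16-113 for HIF3A (1.21), without 15-101 for PIK3R1 (0.93), and without 16-123, 15-101 or 16-113 for ESM1 (-1.88, -1.64 and -1.95). Between the early groups of each drug, beside 6.74% of all tested genes, the lists held 2 called ligands and modulators, 2 hypoxia regulators, 0 signalling genes, 0 VEGF-induced genes and 1 semaphorin. Of these, ADAMTS3 lost its call without 17-254 (0.85) or 15-81 (0.64), ANGPTL2 lost its call without 16-123 (-0.47), 16-131 (-0.62) or 15-85 (-0.64), EGLN3 lost its call without 17-254 (-0.73) or 15-85 (-0.67) and HIF3A lost its call without 16-123 (0.75), 16-131 (0.56) or 15-97 (0.74), with the log2 fold changes given, and SEMA3A did not. With only the 2 groups in the fit ADAMTS3, ANGPTL2 and HIF3A were not called, nor was ANGPTL2 without a read filter. Between 4 h and 5 days after the clinical drug, beside 10.4%, the counts were 3, 2, 2, 4 and 1. Here ADAMTS3 lost its call without 15-81 (0.45), 16-115 (0.73) or 16-126 (0.82), VEGFD lost its call without 15-85 (-0.57), 16-120 (-0.51) or 16-126 (-0.68), EGLN3 lost its call without 15-85 (-0.71) or 16-126 (-0.58), NR4A1 lost its call without 15-81 (-1.54), 15-85 (-1.57) or 16-115 (-0.69) and NR4A3 lost its call without 15-81 (-1.55), 15-85 (-1.12), 16-115 (-1.35) or 16-126 (-1.36). NR4A1 and NR4A3 were not called with Benjamini-Hochberg adjustment, nor NR4A3 with only the 2 groups in the fit, nor NR4A3 and ADAMTS3 without a read filter. ESM1 was also called, at -1.05 (edgeR Storey q = 0.0903), in groups that overlapped. Its unadjusted edgeR p of 0.0261 is above the 0.0252 of NR4A3, so it does not pass Benjamini-Hochberg adjustment either. Between 6 h and 5 days after Beta-Ac, beside 0.261%, HIF3A (1.30) and PIK3R1 (1.06) were called, both higher at 6 h. Each lost its call without 4 of the 6 libraries, and HIF3A also with only the 2 groups in the fit.

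The glucocorticoid target FKBP5 was measured as a known responder to such drugs. It was at 5.61 ± 0.296 CPM after saline, 173 ± 49.6 CPM at 4 h after the clinical drug and 52.0 ± 47.1 CPM at 6 h after Beta-Ac, and at 6.19 ± 0.449 and 6.15 ± 0.351 CPM at 5 days. Both early groups lay above every control. ZBTB16 was at 9.48 ± 4.65 CPM after saline, 203 ± 71.5 at 4 h after the clinical drug and 124 ± 52.3 at 6 h after Beta-Ac, and PER1 at 153 ± 52.7, 754 ± 73.1 and 526 ± 84.6 CPM.

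The genes whose log2 CPM was most like that of KDR over the 15 lung libraries, by Pearson correlation, were KLHL4 (0.955), ETS1 (0.939), ARAP1 (0.938), PCDH12 (0.934) and IKBKE (0.932). For VEGFA they were ICAM1 (0.900), PSEN2 (0.891), VAT1 (0.887), FAM241B (0.878) and TRAF4 (0.875). These are descriptions over libraries that include the treated groups, so that shared group differences enter them.

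In hippocampus, none of the 10 genes was called by edgeR in any comparison in the main fit of all 15 libraries. Calls gained under alternatives, such as run as a block, are given below with their genes. For CEL against CTL the count was 0 of 10, beside 7.86% of all tested genes, the adjusted p here being that of Benjamini and Hochberg, with 1 at an unadjusted p under 0.05, beside 5322 of 17390. For BAC against CTL it was 0, beside 0%, with 2 at an unadjusted p under 0.05, and for CEL against BAC it was 0, beside 0%, with 2. DESeq2 called 0, 0 and 1, the last being FLT1. Over all tested genes, 2133 had an unadjusted p under 0.05 and DESeq2 called 138 for BAC against CTL, where edgeR called 184 without BAC128, and 2346 and 180 for CEL against BAC.

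VEGFA in hippocampus was 121, 170.3, 161, 102 and 199.6 CPM in CTL, 173, 140.5, 132, 136 and 130.4 CPM in BAC and 184, 157, 256, 161 and 183 CPM in CEL. All 3 groups overlapped. The log2 fold change of CEL against CTL was 0.32 (SE 0.17, edgeR Benjamini-Hochberg adjusted p = 0.222), and 0.44 without CTL212, under the fold required. With run as a block it was 0.043, within the 2 runs that hold all groups 0.085, and with the block but without CTL212 0.30. The ligand ANGPT1 was 25.6, 20.1, 41.0, 29.7 and 30.5 CPM in CTL, 50.1, 36.4, 52.5, 25.3 and 52.6 CPM in BAC and 57.4, 45.4, 50.01, 33.3 and 26.2 CPM in CEL. Most treated libraries were higher than most controls, with overlap in both, and the log2 fold changes were 0.56 (SE 0.24, edgeR Benjamini-Hochberg adjusted p = 0.367) for BAC and 0.53 (SE 0.24, edgeR Benjamini-Hochberg adjusted p = 0.151) for CEL against the same controls. Control libraries came from 4 sequencing runs and treated ones from 2 of these. With run as a block the values were 0.25 and 0.18, and within the 2 runs that hold all groups they were 0.30 and 0.27. With gestational age as a covariate they were 0.62 and 0.48, and neither was called. For CEL the call was gained without CEL245, at 0.66, or without CTL113, at 0.68. VEGFC was near the low end of detection, ranging from 0.951 to 3.24 CPM.

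Hippocampal KDR was 45.2, 48.9, 68.3, 37.4 and 167 CPM in CTL, 65.7, 72.3, 46.4, 39.5 and 60.4 CPM in BAC and 60.2, 49.2, 56.2, 42.9 and 54.3 CPM in CEL. The last of the CTL values, from CTL212, stood above every other library, and the remaining libraries overlapped. The log2 fold change of CEL against CTL was -0.48 (SE 0.33, edgeR Benjamini-Hochberg adjusted p = 0.337), and 0.073 without CTL212. With run as a block it was -1.15 and was called, as it was within the 2 runs that hold all groups (-1.13), and with the block but without CTL212 it was -0.28 and was not. Of the 5 controls, only CTL113 and CTL212 share a run with treated libraries. The KDR share of the endothelial sum (9 of 12 markers matched, PECAM1 the most abundant, none at 0) was 24.6, 24.0, 29.1, 25.5 and 60.5% in CTL, the last again from CTL212, where the choroid plexus markers were high. Among the endothelial markers, 2 of 9 were called lower in CEL than in CTL, VWF and EMCN, at -0.86 and -0.78 on the log2 scale (edgeR Benjamini-Hochberg adjusted p = 0.0990 and 0.0937), beside 931 of all 17390 tested genes. Neither was called with run as a block and CTL212 left out, where edgeR called no gene of the table, and the other alternatives were not run for single markers. The list's median was -0.063, and ERG, ESAM, ROBO4 and CDH5 had values above 0. The part of these markers in the KDR, TEK and TIE1 levels was not tested.

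FLT1 in hippocampus was 43.0, 33.0, 38.6, 28.9 and 33.5 CPM in BAC, 49.8, 48.8, 64.6, 49.2 and 62.7 CPM in CEL and 39.6, 45.7, 55.3, 32.1 and 50.3 CPM in CTL. The 5 CEL libraries were all above the 5 BAC libraries, and CTL overlapped both. The log2 fold change of CEL against BAC was 0.64 (SE 0.15, edgeR Benjamini-Hochberg adjusted p = 0.208), which did not pass the adjustment, and within the 2 runs that hold all groups it was 0.63. It was called with run as a block and CTL212 left out, at 0.64 (edgeR Benjamini-Hochberg adjusted p = 0.0968). With the block alone the log2 fold change was also 0.64, but it was not called (edgeR Benjamini-Hochberg adjusted p = 0.105). Against CTL, FLT1 with run as a block was at -0.59 in BAC and 0.052 in CEL, and within the 2 runs that hold all groups at -0.55 and 0.080. Without CTL212 and without the block it was at -0.29 and 0.35. None of these values against CTL was called. The angiopoietin receptors TEK and TIE1 were 17.5, 15.6, 21.2, 10.2 and 20.2 and 14.6, 15.2, 17.1, 10.6 and 22.5 CPM in CTL, and in CEL they were 13.5, 13.1, 11.7, 10.6 and 15.3 and 12.1, 10.7, 12.8, 10.7 and 16.2 CPM. The groups overlapped for both, and against CTL the log2 fold changes were -0.40 (SE 0.19, edgeR Benjamini-Hochberg adjusted p = 0.168) for TEK and -0.36 (SE 0.21, edgeR Benjamini-Hochberg adjusted p = 0.249) for TIE1. Without CTL212 they were -0.33 and -0.21. With run as a block both were called, at -0.69 and -0.62, and with the block but without CTL212 neither was, at -0.76 and -0.60. For BAC against CTL, TEK was at -0.36, and at -0.65 with run as a block, and TIE1 at -0.17 and -0.45. Without CTL212 TEK was at -0.29 and TIE1 at -0.015, and with the block but without CTL212 at -0.72 and -0.43. KDR in BAC was at -0.37 against CTL, at -1.04 with the block and at 0.19 without CTL212. With the block but without CTL212 it was at -0.18. None of these BAC values was called. FLT4 ranged from 3.54 to 10.0 CPM, NRP1 from 141 to 475 CPM and NRP2 from 116 to 365 CPM over the 15 libraries.

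**Figure D3:**
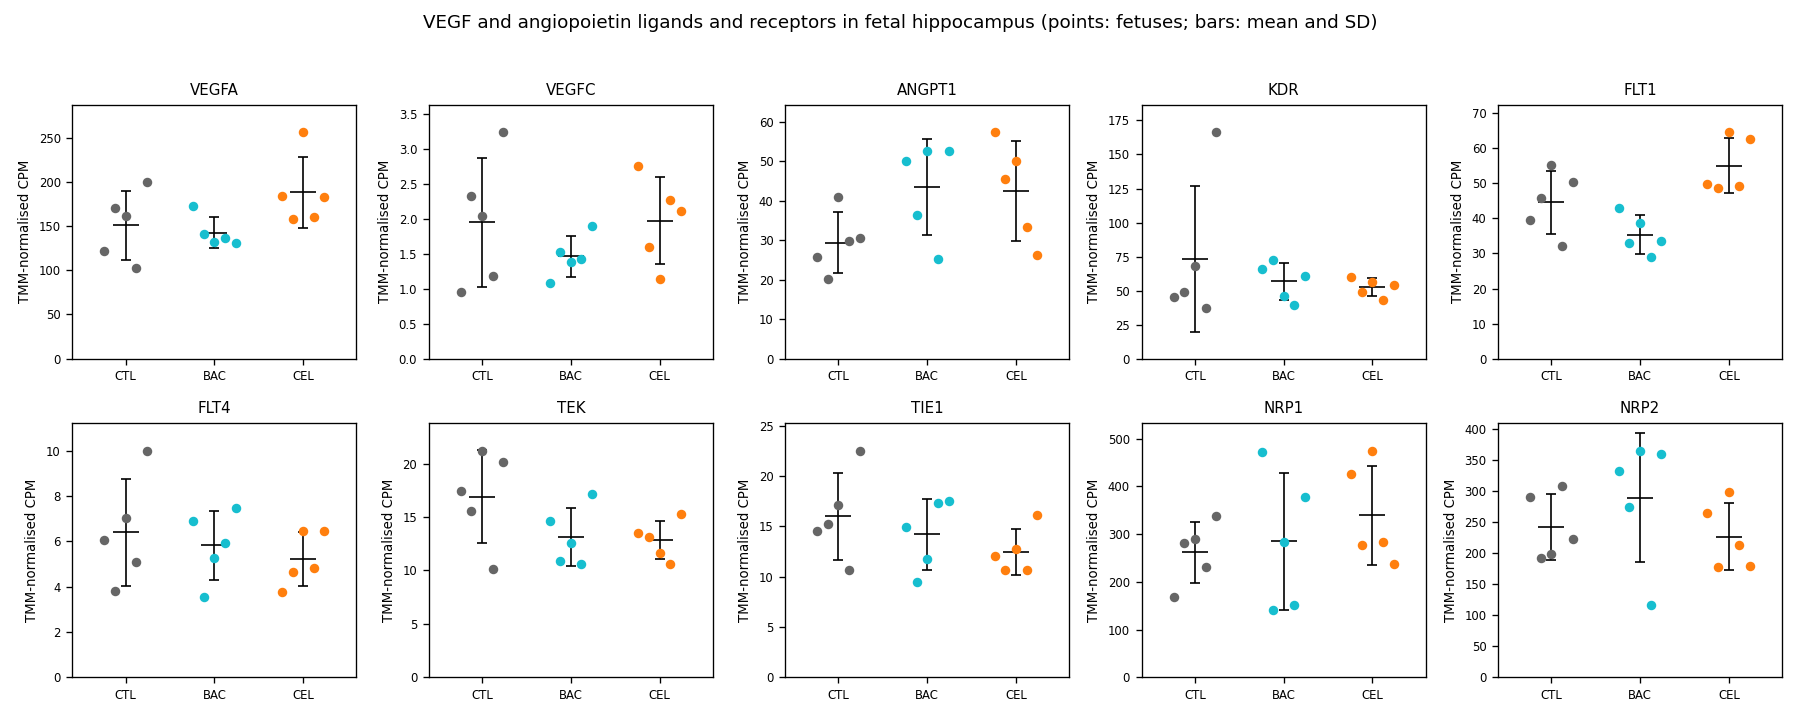
Level of each of the 10 genes in fetal hippocampus, in TMM-normalised CPM on a linear axis from 0, for 3 groups of 5 fetuses (points, fetuses, bars, mean and SD). For KDR the library CTL212, at 167 CPM, lies above all others.

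Of the pathway lists in hippocampus, 1 of 7 tested hypoxia regulators was called for CEL against CTL, beside 7.86% of all tested genes. This was ARNT, the partner of the hypoxia-inducible factors, which was lower by a log2 fold change of -0.68 (SE 0.15, edgeR Benjamini-Hochberg adjusted p = 0.0156). Within the 2 runs that hold all groups it was not called, at -0.74, nor with run as a block and CTL212 left out, at -0.60. None of the other ligands and modulators, VEGF-induced genes or semaphorins and plexins was called by edgeR in the main fit. The genes most like KDR over the 15 hippocampus libraries were BTBD16 (0.940), MARVELD2 (0.936), DAB2 (0.932), COLEC12 (0.930) and WFIKKN2 (0.928). Over the 14 libraries without CTL212 the same genes had BTBD16 (0.787), MARVELD2 (0.837), DAB2 (0.827), COLEC12 (0.765) and WFIKKN2 (0.751). Those most like VEGFA were DLL4 (0.902), RUNX2 (0.842), ARHGEF15 (0.828), NRROS (0.828) and TIFA (0.823).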

How the data were processed

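The authors deposited a count table per tissue, with whole reads per Ensembl gene. Per the labels, lung reads were aligned with Bowtie 1.2.1.1 and counted with featureCounts 1.5.1, and hippocampus reads with Bowtie2 and featureCounts. The study's methods, written for lung, name Bowtie 2 and MMUL1.0, and the conflict with the labels was not resolved. Strand use in counting is not given in the sources used here.

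Counts were analysed with edgeR 4.0.16 in R 4.3.3 (TMM, quasi-likelihood F-test), in a single fit of 15 libraries per tissue. A gene entered the tests with 7 or more reads in 3 or more of the lung libraries, or in 5 or more of those from hippocampus. Log2 CPM used a prior count of 2. Lung p-values were adjusted by Storey's method and hippocampus p-values by Benjamini-Hochberg, over all tested genes. Symbols came from the Ensembl gene name table, which matched 15769 lung and 17621 hippocampus identifiers. No genome positions or transcript lengths were used, so the most abundant gene of a list, marker sums and ratios are by CPM and not per length. Named genes are the 10 members, at most the 3 called genes with the largest change per list and comparison, the 5 genes most like KDR and VEGFA, and the glucocorticoid targets FKBP5, ZBTB16 and PER1. Cell type markers are named beside these, and single markers were picked for naming after their values were seen. The result of the signalling list in hippocampus is not reported here. The members and lists were chosen with earlier results of these data known. Alternatives were RLE scaling, filterByExpr, no read filter, only the groups compared, DESeq2 1.42.0, the other adjustment, no fold threshold, each library left out and, in hippocampus, run and gestational age. The run block without CTL212 was chosen after seeing the data.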

Additional observations from a re-analysis of the deposited data

Results flagged for a closer look

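Dixon's test was applied to each hippocampus group of 5 for the 10 genes and for the endothelial and choroid plexus sums, 36 groups in all, of which chance alone passes about 1 in 20. It marked 4 values far from the rest of their group. These were VEGFA in BAC128 at 173 CPM, VEGFA in CEL126 at 256 CPM, KDR in CTL212 at 167 CPM and the choroid plexus sum in CTL212 at 1084 CPM.

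Differences between the drug groups in lung passed the test for 2 genes, KDR at -0.86 and NRP2 at -1.60 on the log2 scale for the clinical drug at 4 h minus Beta-Ac at 6 h. Differences between 4 h and 5 days after the clinical drug passed for KDR (-1.23), NRP1 (-0.72) and NRP2 (-1.65).

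At 5 days after the clinical drug, by library name in hippocampus, 3 genes lay on opposite sides of their control mean in every treated library of the 2 tissues. How many of all tested genes do so was not counted. For TEK the lung margin was almost nil, the lowest treated library being at 240.708 CPM against a saline mean of 240.699 CPM. For KDR these were 616 and 612 CPM. The mean log2 difference from controls in lung minus that in hippocampus was -0.44 for VEGFA, 0.32 for KDR and 0.52 for TEK. These are mean log2 differences and not fitted values. For KDR the fitted log2 fold changes, 0.068 in lung and -0.48 in hippocampus, lie further apart. The difference was not tested, since the tissues were normalised separately, and that of KDR rests on CTL212 among the controls. Without that library the hippocampus log2 fold change of KDR was 0.073, and the lung one was 0.068, so the directions were not opposite. With run as a block the hippocampus log2 fold change of VEGFA was 0.043 and that of TEK -0.69, against 0.32 and -0.40 without it, and within the 2 runs that hold all groups they were 0.085 and -0.67.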

How the results depend on the processing

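In lung the count of members called kept within 1.5 times its value under every alternative run. For the clinical drug at 4 h against saline it was 3 to 4, and KDR, NRP1 and NRP2 kept their calls, KDR with log2 fold changes of -1.28 to -1.01, NRP1 of -0.95 to -0.70 and NRP2 of -1.23 to -0.89. Without a fold threshold TEK was called too. In hippocampus, the count for CEL against CTL moved from 0 to 3 with run as a block and to 1 within the 2 runs that hold all groups, and was 0 to 1 with each library left out. The count for CEL against BAC moved from 0 to 1 with DESeq2 and with the run block without CTL212. The cause was not tested. The fold change of KDR in CEL against CTL was -0.63 to 0.073 with each library left out, and changed sign, to 0.073, without CTL212.

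Counts over all tested genes moved by over 1.5 times as follows. For clinical 4 h against saline, 1306 became 2104 without a fold threshold. For Beta-Ac 6 h against saline, 78 became 19 with only those groups, 234 with DESeq2 and 9 to 211 with each library left out, moving over 1.5 times without 16-131 (211), 17-254 (12), 15-92 (9), 15-101 (26) or 16-113 (48). For clinical 5 days against saline, 0 became 1 without a read filter, 16 with DESeq2 and 0 to 9 with each library left out, moving over 1.5 times without 15-101 (1) or 16-113 (9). For Beta-Ac 5 days against saline, 1 became 2 without a read filter, 7 with only those groups, 38 with DESeq2 and 0 to 2 with each library left out, moving over 1.5 times without 16-128 (0), 16-130 (0), 16-136 (0), 15-92 (0), 15-101 (0) or 16-113 (2). For both drugs at 5 days against saline, 2 became 8 without a read filter, 32 with DESeq2 and 0 to 21 with each library left out, moving over 1.5 times without 16-128 (1), 16-130 (1), 16-136 (1), 16-120 (1), 15-92 (0), 15-101 (4) or 16-113 (21). For clinical 4 h against Beta-Ac 6 h, 1189 became 724 without a read filter, 314 with only those groups, 2389 without a fold threshold and 667 to 1971 with each library left out, moving over 1.5 times without 15-81 (1971) or 15-85 (667). For clinical against Beta-Ac at 5 days, 0 became 7 with DESeq2 and 0 to 1 with each library left out, moving over 1.5 times without 16-120 (1). For clinical 4 h against 5 days, 1833 became 3306 without a fold threshold. For Beta-Ac 6 h against 5 days, 46 became 9 with only those groups, 177 with DESeq2, 29 with Benjamini-Hochberg adjustment and 5 to 98 with each library left out, moving over 1.5 times without 16-128 (8), 16-130 (10), 16-136 (5), 16-131 (98) or 17-254 (11). For CEL against CTL, 1366 became 3816 without a fold threshold, 0 with the block and without CTL212 and 229 within the 2 shared runs. For BAC against CTL, 0 became 138 with DESeq2, 1 with Storey adjustment, 18 within the 2 shared runs and 0 to 184 with each library left out, moving over 1.5 times without BAC128 (184). For CEL against BAC, 0 became 180 with DESeq2, 13 with run as a block and 110 with the block and without CTL212. For Beta-Ac at 6 h against saline HIF3A, PIK3R1 and ESM1 were called, and lost the call without 3, 3 and 5 of the 6 libraries. Groups of 3 limit the lung results, and VEGFC in hippocampus rests on 19 to 81 reads per library.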
